A study of Mus musculus with 14 samples.

Results

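Decorin (Dcn), Sparc and periostin (Postn) are 3 secreted proteins of the extracellular matrix, and each was measured by 1 probe among the 7680 probes of a spotted array. The probes were those whose symbol in the platform annotation is Dcn (probe 5656), Sparc (probe 873) or Postn (probe 908), and all 3 had a value on all 14 arrays. The genes were chosen by their log2 ratios on these same arrays, so their levels and differences are given as a description, with errors and without p-values. The arrays compared total RNA of 11 mouse cell lines, labelled with Cy5, with the Stratagene mouse reference, a commercial RNA pool of cell lines labelled with Cy3. The blood-cell lines were a macrophage, a myeloma and a T-cell lymphoma line. The mesenchymal lines were a fibroblast, an embryo fibroblast and a myoblast line, and the organ lines were named mammary tumor, testis, liver, kidney and skin. Myeloma, fibroblast and mammary tumor had 2 arrays each and the other 8 lines had 1, so a value of those lines has no replicate check. No dye swap was made. The labels give neither strain, passage, treatment nor the commercial name of a line. Their titles name cell lines while a general annotation says primary tissue, and the reference of mammary tumor array 1 carries the added letters MRR. Whether the repeat arrays of a line had a culture each is not stated, so in the fibroblast comparisons the errors and p-values cover array-to-array spread, which could be technical. In the comparisons of lineages they cover the spread between lines.

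Decorin is a small leucine-rich proteoglycan that binds collagen fibrils and limits their width, and it also binds TGF-beta. Sparc is a collagen-binding, calcium-binding glycoprotein that loosens the contact of cells with matrix and serves collagen deposition and basement membranes. Periostin is built of fasciclin domains, binds collagen, tenascin C and integrins, and is known from periosteum, tendon, heart valves and healing tissue. All are commonly used as marks of stromal, fibroblast-type cells.

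A positive log2 ratio means more RNA in the line than in the pool. This direction follows from the dyes in the labels and from the marker genes, while base 2 is not stated and was assumed, so every fold rests on it. Most array medians lay near 0, but those of embryo fibroblast (-0.508) and kidney (-0.406) were lower. Labels were checked against marker genes. The line was the highest of the 11 for 10 of 10 muscle probes in myoblast, 8 of 9 plasma and B-cell probes in myeloma, 6 of 8 macrophage probes in macrophage and 4 of 8 T-cell probes in T-cell lymphoma. Fibroblast markers separated the fibroblast lines poorly: fibroblast was the highest line for 3 of 11 probes (6 above the pool, median 0.04) and embryo fibroblast for 1 (5 above the pool, median -0.12), against 4 in myoblast and 2 in testis. For the organ lines the counts were 2 of 9 in kidney, 1 of 10 in testis, 1 of 10 in skin, 0 of 9 in mammary tumor and 0 of 11 in liver, so these organ names, like the fibroblast names, rest on the labels.

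Sparc and Postn were both highest in the myoblast line, so the DNA around an RNA start of each is shown. Both are RefSeq windows of GRCm38.p6, 300 bases long around the start, 5′ to 3′ on the gene's strand, in lower case, with TATAAA on either strand in capitals. The Postn window is chr3:54360857-54361156 on the plus strand, the later of 2 Postn starts in the table, shown because it holds TATAAA while the other window holds neither motif below, and the Sparc window is chr11:55420031-55420330 on the minus strand. No Dcn window is shown.
Postn: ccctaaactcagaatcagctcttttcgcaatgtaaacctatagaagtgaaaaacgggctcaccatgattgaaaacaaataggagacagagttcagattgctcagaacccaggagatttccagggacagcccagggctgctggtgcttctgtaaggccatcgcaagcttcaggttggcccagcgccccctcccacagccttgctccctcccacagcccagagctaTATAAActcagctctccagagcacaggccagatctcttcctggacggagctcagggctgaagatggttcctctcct
Sparc: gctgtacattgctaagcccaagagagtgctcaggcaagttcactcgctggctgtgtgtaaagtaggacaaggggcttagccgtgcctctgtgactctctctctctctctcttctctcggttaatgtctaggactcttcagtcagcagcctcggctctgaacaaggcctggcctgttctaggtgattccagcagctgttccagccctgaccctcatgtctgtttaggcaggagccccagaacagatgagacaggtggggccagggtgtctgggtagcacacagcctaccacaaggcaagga
The Postn window held TATAAA once, 26 bases before the start, and the Sparc window did not hold it. Over 32851 promoter windows of this length, 13.6% held TATAAA on either strand. CANNTG, a motif that reads the same on both strands, was found 3 times in the Sparc window and 0 times in this Postn window, and 72.3% of windows held it. These matches describe letters and are no sign of a bound factor.

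Dcn RNA was above the pool in only 2 of the 11 lines, fibroblast and testis, and was far below it in most others. The fibroblast arrays gave log2 ratios of 2.02 and 1.84, which were higher than 99.4% and 99.3% of the features on those arrays. The testis line gave 0.95. Then came embryo fibroblast with -1.17 and myoblast with -2.07, so the other lines named for mesenchymal cells held less Dcn than the pool. The myeloma arrays gave -3.37 and -2.45, and liver gave -4.13. At the low end the mammary tumor arrays gave -4.96 and -4.16, T-cell lymphoma -4.58, skin -5.50, macrophage -5.62 and kidney -5.68. The range over line means was 7.61 on the log2 scale, or 195-fold, and 14 of the 7423 features measured in all lines varied more between lines. Fibroblast stood 0.97 above testis, within 2 standard errors of the difference, while testis stood 2.12 above embryo fibroblast, beyond that limit. Below myeloma, with its gap of 1.22 to liver, no neighbours from liver down to kidney differed beyond the same limit. How far such low ratios lie above the background of the array is not analysed here.

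Sparc RNA was low in the 3 blood-cell lines, and the 8 other lines all lay above them. Sparc was chosen by these values, and how many other features part the lines in this way was not counted. Of all 7423 tested probes 2.09% were called lower in the blood-cell lines (limma, adjusted p under 0.05). The macrophage line had a log2 ratio of -4.05, the myeloma arrays had -3.36 and -5.0, and the T-cell lymphoma line had -4.00. The 8 other lines lay between -1.13 in embryo fibroblast and 2.08 in myoblast. Fibroblast arrays gave 0.42 and 0.96, mammary tumor arrays 0.26 and 1.13, testis 0.58, liver 0.05, kidney -0.40 and skin -0.63. Only the step from embryo fibroblast to T-cell lymphoma, 2.87 on the log2 scale, was beyond 2 standard errors of the difference between neighbours. From myoblast to embryo fibroblast each line was within that limit of the next. With each array centred on its median, embryo fibroblast was at -0.617 and skin, at -0.76, was the lowest of the 8. The organ lines averaged 0.06 ± 0.58 (SD, n = 5), so lines labelled liver, kidney, skin and testis carried Sparc RNA at about the level of the pool. Dcn, in contrast, was 17.5-fold to 51.3-fold below the pool in liver, mammary tumor, skin and kidney, but 1.94-fold above it in testis.

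Postn RNA was above the pool in the myoblast line and the mammary tumor line and below it in the other 9. Myoblast gave a log2 ratio of 2.51 and the mammary tumor arrays gave 2.16 and 1.89. After a gap of 2.54, beyond 2 standard errors, came liver with -0.51, macrophage with -0.77, skin with -1.12, kidney with -1.44 and testis with -1.80. The myeloma arrays disagreed, at 0.25 and -1.98, a difference larger than that of 98.3% of probes between these arrays. T-cell lymphoma gave -2.60. The lowest values came from lines named for fibroblasts, with -3.03 and -2.96 on the fibroblast arrays and -4.11 in embryo fibroblast. From liver down to embryo fibroblast no neighbours differed beyond 2 standard errors. The embryo fibroblast value was -3.60 with its array centred on the median, still the lowest of the 11. Epithelial markers in the mammary tumor line were above the pool for 1 of 9 probes, with a median log2 ratio of -1.19. Fibroblast markers in that line were above it for 4 of 11 probes, with a median of -0.16. The epithelial list was above the pool for 6 of 9 probes in myeloma (median 0.95), 4 in liver (median -0.5), 1 in skin and 0 in kidney. The organ names rest on the labels, so whether a low count on this list marks a line as not epithelial was not tested. The part of these markers in the Postn level of mammary tumor was not tested.

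**Figure D1:**
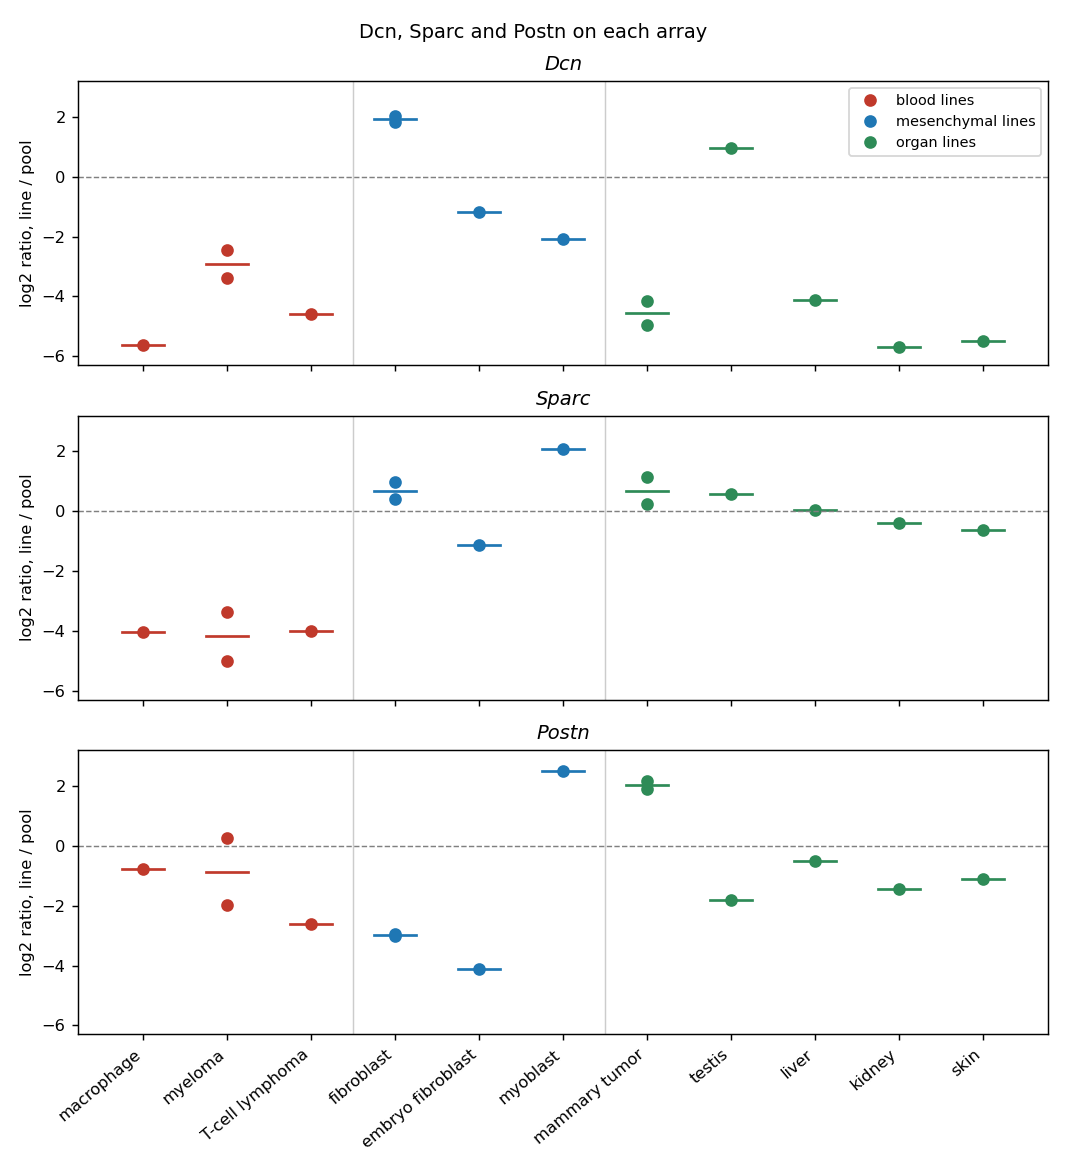
Log2 ratio of line over pool (y axis) for Dcn, Sparc and Postn on each of 14 arrays (points), with the mean of each line (bars) and the lines grouped as blood-cell, mesenchymal and organ lines (x axis). Dcn was above the dashed line of the pool in fibroblast and testis, Sparc was low in all 3 blood-cell lines, and Postn was high in myoblast and mammary tumor.

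The 3 genes did not rise and fall together. Over the 11 line means, which share the reference and differ in array, Pearson's r was 0.40 between Dcn and Sparc, -0.33 between Dcn and Postn and 0.36 between Sparc and Postn. Spearman's rho was 0.39, -0.30 and 0.31. Without the blood-cell lines, over 8 lines, r was 0.30, -0.42 and 0.70 for the same pairs. The fibroblast line, the highest of all for Dcn, was the second lowest for Postn. Myoblast, the highest for Sparc and Postn, had Dcn at a level 4.21-fold below the pool. If the 11 lines had entered the pool in equal parts, fibroblast would have supplied 34.6% and testis 17.6% of its Dcn RNA. On the same assumption myoblast would have supplied 38.4% of Sparc and 51.6% of Postn, and mammary tumor 37.0% of Postn. Summed over the lines these shares reached 61.4% for Dcn, 109% for Sparc and 119% for Postn. The assumption requires that they add up to the whole, so it was not met exactly and the shares are rough, most of all for Dcn.

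Repeat arrays set the precision. The fibroblast pair differed by 0.18 for Dcn, 0.54 for Sparc and 0.07 for Postn on the log2 scale, and the mammary tumor pair by 0.80, 0.88 and 0.28. The myeloma pair differed by 0.92, 1.64 and 2.23. The SD that limma used for a single array, moderated over all probes, was 0.458 for Dcn, 0.614 for Sparc and 0.688 for Postn. Before moderation the SD was 0.501, 0.792 and 0.919. The range over lines of each gene was several times its SD. The genes were chosen by these ratios, so this is no check of the differences between lines.

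The fibroblast line was compared with the other 10 lines, each line with equal weight. Dcn averaged 1.93 in fibroblast (arrays 2.02 and 1.84) and -3.53 ± 2.20 in the others (SD, n = 10 lines), a log2 difference of 5.45 ± 0.35 (standard error of the fit), or 43.8-fold. Sparc averaged 0.69 in fibroblast and -1.10 ± 2.23 in the others, a difference of 1.79 ± 0.47. Postn averaged -2.99 in fibroblast and -0.87 ± 1.96 in the others, a difference of -2.12 ± 0.53. Dcn in fibroblast lay above all 10 other lines, while Sparc and Postn lay inside their range. The fibroblast arrays belonged to different runs of image numbers. Within the run of array 1, Dcn was 5.83 above the mean of 3 other lines, and within the run of array 2 it was 4.76 above the mean of 4. The same values were 2.26 and 2.86 for Sparc, and -0.31 and -1.97 for Postn.

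Between the lines named for fibroblasts, all 3 genes had lower values in embryo fibroblast, whose array was also lower as a whole. The log2 difference of embryo fibroblast minus fibroblast was -3.09 ± 0.56 for Dcn, -1.82 ± 0.75 for Sparc and -1.12 ± 0.84 for Postn, against a median of -0.39 over all tested probes. With each array centred on its median the differences were -2.66, -1.39 and -0.69. Dcn was thus 8.53-fold lower in embryo fibroblast before centring. Against the fibroblast array of the same image run alone, the differences were -3.18, -1.55 and -1.08. The Postn difference was within 2 standard errors of 0. Those of Sparc and Postn were both within 2 standard errors of the median shift, while that of Dcn was beyond it.

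Across lineages the line was the replicate. Sparc averaged -4.07 ± 0.10 in the blood-cell lines (SD, n = 3) and 0.24 ± 1.0 in the other lines (n = 8), a difference of -4.32 ± 0.54, or 19.9-fold. Leaving out any line kept this difference between -4.05 and -4.51, and quantile normalization gave -3.66. Within single runs of image numbers the difference of blood-cell lines from the other lines was -3.63 (1 blood-cell line against 3 others) and -4.65 (2 against 3). The SD of 0.10 was below the moderated SD of a single array, 0.614, and the myeloma arrays differed by 1.64. The blood-cell means were thus closer together than the arrays can resolve. Dcn averaged -4.37 ± 1.37 in the blood-cell lines and -2.53 ± 2.92 in the others, a difference of -1.84 ± 1.26 with overlapping groups. Quantile normalization moved it to -1.01, and leaving out the macrophage or the fibroblast line to -1.22 or -1.20, while within runs it was -2.97 and -3.82. Postn averaged -1.41 ± 1.03 in the blood-cell lines and -0.93 ± 2.27 in the others, a difference of -0.48 ± 1.17, whose sign turned without the T-cell lymphoma line (0.11) or the myoblast line (0.01). Within runs Postn had the opposite sign, with differences of 0.26 and 0.93, so no direction held for it. Those runs held neither myoblast nor mammary tumor, the lines with the most Postn, so they compare fewer and different lines.

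Mesenchymal and organ lines overlapped for all 3 genes. Dcn averaged -0.44 ± 2.10 in the mesenchymal lines (SD, n = 3) and -3.78 ± 2.73 in the organ lines (n = 5), a difference of 3.35 ± 1.35. It was 2.16 without the fibroblast line and 4.53 without the testis line, the organ line that reached the range of the mesenchymal lines. Sparc averaged 0.55 ± 1.61 and 0.06 ± 0.58 in these lineages, a difference of 0.49 ± 0.58 that became -0.27 without the myoblast line and 1.33 without embryo fibroblast. For Postn the averages were -1.53 ± 3.54 and -0.57 ± 1.52, with a difference of -0.97 ± 1.26 that became 0.32 without embryo fibroblast and -2.99 without myoblast. Within the 3 image runs that held both lineages, with 1 or 2 lines a side, the difference was 2.09, 6.11 and 3.42 for Dcn and 0.95, 0.05 and 0.65 for Sparc. For Postn it was 0.62, -2.14 and -1.80, which differ in sign. Fibroblast markers in the testis line were above the pool for 7 of 11 probes with a median of 0.20, against 7 (median 0.19) in myoblast, 6 (median 0.04) in fibroblast and 5 (median -0.12) in embryo fibroblast. That marker list holds none of the 3 genes. Their part in its Dcn level was not tested.

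**Figure D2:**
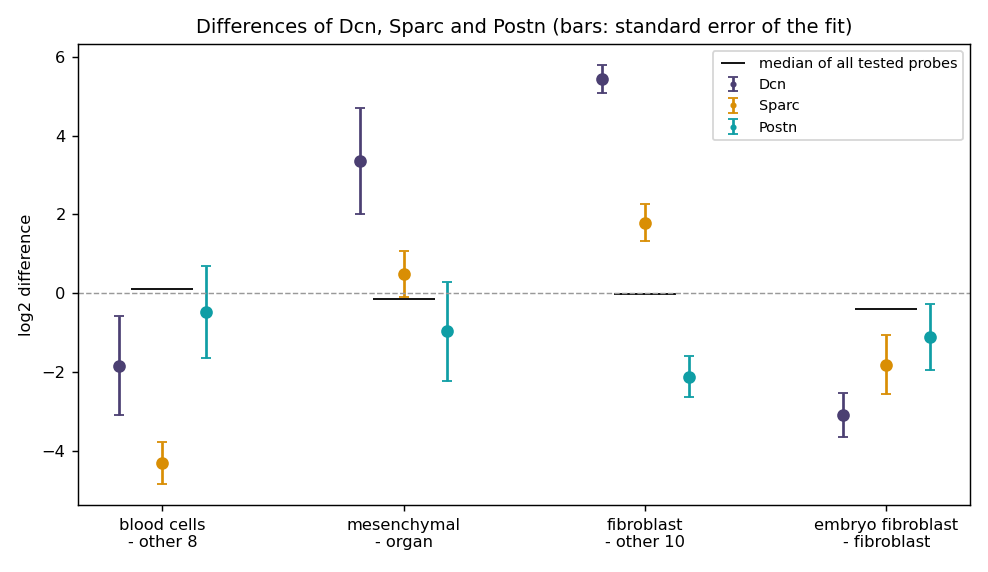
Log2 difference (y axis) of Dcn, Sparc and Postn in 4 comparisons (x axis, first-named lines minus the others), with bars for the standard error of the fit and a black dash for the median of all tested probes. Dcn was 5.45 higher in fibroblast than in the other lines and Sparc was 4.32 lower in the blood-cell lines, while Postn was 2.12 lower in fibroblast.

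Relatives of each gene did not share its pattern throughout. Of 17 small leucine-rich proteoglycans in the list 8, Dcn included, were on the array. Biglycan (Bgn), the closest in structure to decorin, had log2 ratios of 1.01 in fibroblast, 1.17 in embryo fibroblast and 1.60 in myoblast. In the blood-cell lines it had -3.02 in macrophage, -2.50 in myeloma and -2.68 in T-cell lymphoma. It was about as low in liver (-2.49) and mammary tumor (-2.24), so low Bgn was not limited to blood-cell lines. Bgn fell in the blood-cell lines (difference -2.68 ± 0.60, limma adjusted p = 0.0307), a call that ended in 7 of 15 other settings. In the fibroblast line Bgn differed by 1.98 ± 0.35 from the others, which did not pass (limma adjusted p = 0.0559) but did with the array number as a replicate block (limma adjusted p = 0.0295). Fibromodulin (Fmod), which also binds collagen fibrils, was highest in testis at 2.06 and lowest in embryo fibroblast at -5.74, and was measured in 10 lines only. Osteoglycin (Ogn) was highest in myoblast at 2.68 and was -1.03 in fibroblast. Osteomodulin (Omd) was highest in embryo fibroblast at 0.79 and lowest in macrophage at -1.57. Keratocan (Kera), known from cornea, and epiphycan (Epyc), known from cartilage, were highest in myeloma (Kera 1.39, Epyc 0.80). Chondroadherin (Chad), also known from cartilage, was highest in testis by line mean (1.27), while the fibroblast arrays disagreed, at 1.66 and -1.17.

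Of the Sparc family all 8 genes were on the array. Fstl1, a secreted follistatin-like glycoprotein, was also highest in myoblast and low in all blood-cell lines, with 2.68 in myoblast and -5.20, -4.06 and -5.86 in macrophage, myeloma and T-cell lymphoma. Unlike Sparc it was also low in mammary tumor (-4.42) and liver (-3.32). Fstl1 fell in the blood-cell lines by 4.22 ± 0.91 (limma adjusted p = 0.0273) and rose in fibroblast by 3.52 ± 0.45 (limma adjusted p = 0.0236). These calls ended in 4 of 15 and 2 of 12 other settings, and the fibroblast difference was 2.72 without fibroblast array 2 and 4.32 without fibroblast array 1. Smoc1, a calcium-binding matrix protein, was highest in myeloma at 2.44, where Sparc was lowest. Its difference of 1.89 between embryo fibroblast and fibroblast did not pass (limma adjusted p = 0.113) but did with the replicate block (limma adjusted p = 0.0477). Smoc2 was highest in T-cell lymphoma at 2.90. Hevin (Sparcl1) ranged from 0.78 in T-cell lymphoma to -2.10 in embryo fibroblast. The testicans Spock1 and Spock3 reached line means of 0.82 in kidney and 0.15 in mammary tumor, while the fibroblast arrays gave 1.18 and -0.04 for Spock1. A probe of Spock2 was above the pool in all 3 blood-cell lines (1.09, 1.36 and 1.16 in macrophage, myeloma and T-cell lymphoma), and its other probe, without a macrophage value, gave -1.77 in myeloma and 1.22 in T-cell lymphoma.

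Tgfbi, the other fasciclin-domain gene measured, was like Postn at both ends, with 1.26 in myoblast and -3.70 in embryo fibroblast. It differed from Postn in fibroblast, where Tgfbi was 0.63 and Postn -2.99, and in mammary tumor, where Tgfbi was -1.02 and Postn 2.03. No difference of Tgfbi passed the test in the 4 comparisons without the block (limma adjusted p from 0.0835 to 0.993). With the replicate block its difference of -4.33 between embryo fibroblast and fibroblast passed (limma adjusted p = 0.0239). Of the 16 probes of relatives 9 were lowest in embryo fibroblast, the line whose array also had the lowest median.

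**Figure D3:**
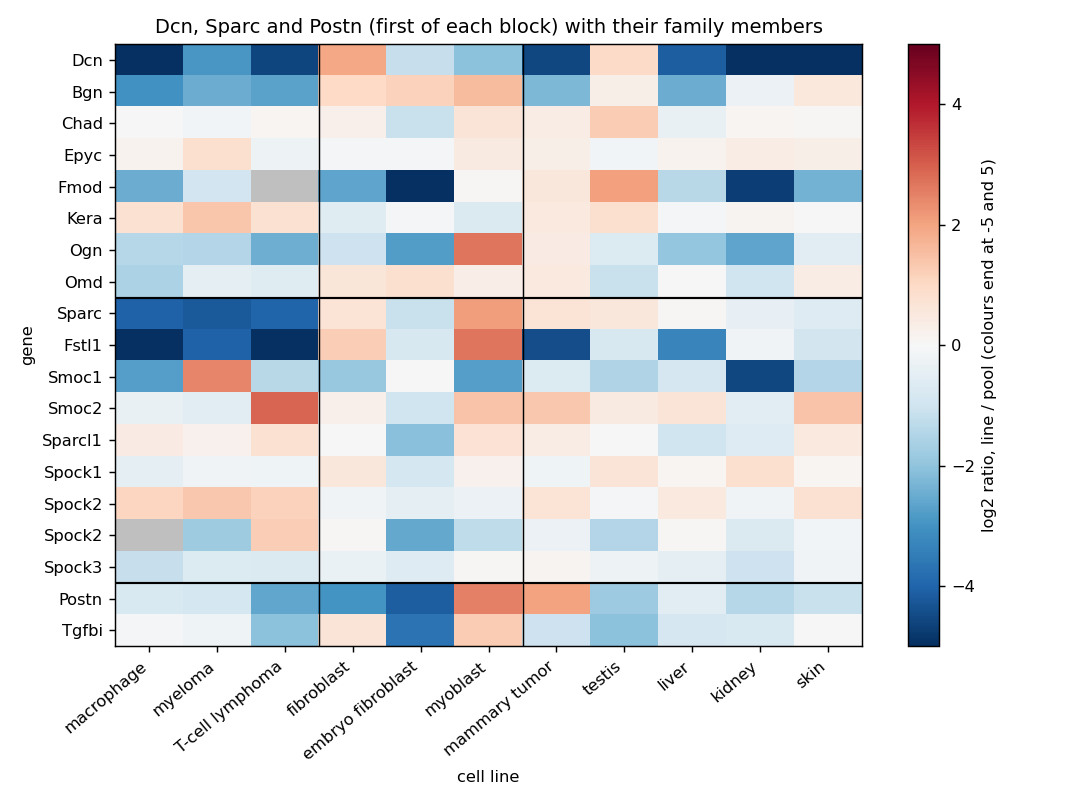
Log2 ratio of line over pool (colour) of Dcn, Sparc and Postn, each at the top of its block, and of their family members (rows) in 11 lines (columns), with grey for no value. Sparc and Fstl1 share dark blue in the blood-cell lines at the left, and Tgfbi shares the ends of the Postn row but not its mammary tumor value.

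Genes most like each of the 3 were ranked by Pearson's r of line means over the 11 lines, given without p-values. For Dcn the first 6 were Hic1 (0.840), a transcriptional repressor, Car11 (0.820), Col3a1 (0.807), a fibrillar collagen chain, Phex (0.786), a membrane endopeptidase, Mrc2 (0.780), a receptor for collagen uptake, and Vegfd (0.767), a lymphatic growth factor. None passed 0.9. Col3a1 had 1.54 in testis, -0.27 in fibroblast and -4.78 in T-cell lymphoma, so its highest line was not that of Dcn. The 3 with the most opposite pattern were Cenpe (-0.809), Polr1c (-0.802) and Hprt (-0.798), which serve mitosis, transcription by RNA polymerase and purine salvage.

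For Sparc 26 features passed 0.9. The first 6 were Col5a1 (0.950), a collagen chain of fibrils, Parva (0.949), a protein of focal adhesions, Cdk16 (0.938), a kinase, Trpc5 (0.937), a cation channel, Schip1 (0.934) and Gstm2 (0.932), a glutathione transferase. Col5a1 followed Sparc from 1.53 in myoblast to -4.67 in T-cell lymphoma, and Parva from 1.38 in mammary tumor to -4.56 in macrophage. Opposite to Sparc were Hcls1 (-0.936), Inpp5d (-0.915) and Lcp1 (-0.895), signalling and actin-bundling proteins of blood cells.

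For Postn the first 6 were Myo10 (0.967), a filopodial myosin, Ephb3 (0.959), an ephrin receptor, Vamp5 (0.90), a membrane fusion protein, Ldb3 (0.884), a muscle Z-disc protein, Gtf2i (0.875), a transcription factor, and Inhbb (0.872), an activin subunit. None of these is a matrix structural protein. All 6 had their highest 2 values in myoblast and mammary tumor, but over a narrower span, with an SD over lines of 0.43 to 1.05 against 1.97 for Postn. Eps15 (-0.874), Huwe1 (-0.818) and Pfkfb3 (-0.804) were opposite. Ranked by Spearman's rho instead, the first 6 shared 2 genes with these for Dcn, 1 for Sparc and 1 for Postn.

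**Figure D4:**
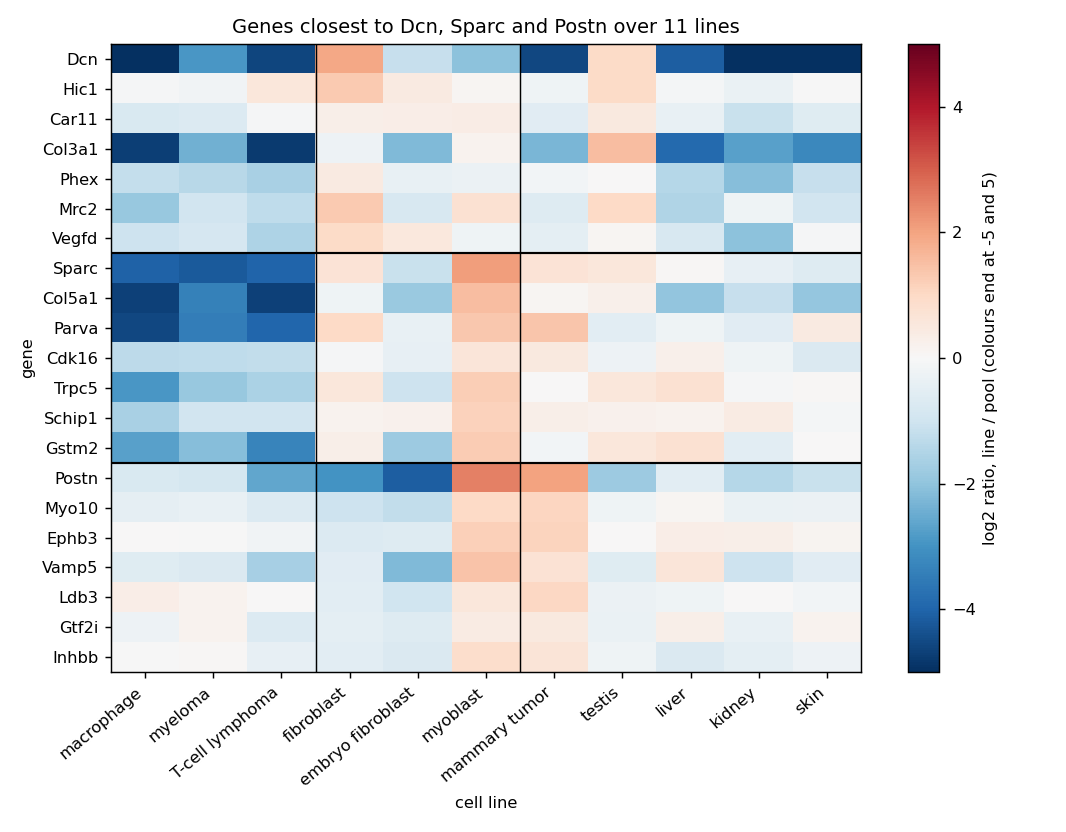
Log2 ratio of line over pool (colour) of Dcn, Sparc and Postn, each at the top of its block, and of the 6 genes with the highest Pearson's r to it (rows) in 11 lines (columns). Col5a1 and Parva share the low blood-cell values of Sparc, and the genes under Postn are reddest in myoblast and mammary tumor.

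The other matrix genes were taken from lists of collagen chains, collagen processing enzymes, matrix partners, receptors, TGF-beta pathway genes, and matrix proteases with their inhibitors, with the relatives above. Dcn, Sparc and Postn were left out, which gave 175 tested probes of 163 genes. The lists were chosen with earlier results of these data known. Their shares of calls, here and in the comparisons below, are thus a description and no independent support. In the blood-cell lines 30 of these were called lower and 0 higher than in the other 8 lines (limma, adjusted p under 0.05), or 17.1%, against 2.09% called lower and 1.04% called higher among all 7423 tested probes. The median difference was -0.66 for the lists and 0.11 for all probes. Within single runs of image numbers the medians were -0.61 for the lists against 0.32 for all probes, and -0.64 against 0.08.

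Collagen chains fell in 5 of 30 probes. The log2 difference was -5.25 ± 1.22 for Col5a2, -5.12 ± 1.02 for Col6a1, -3.70 ± 0.90 for Col1a1 and -3.57 ± 0.68 for Col5a1 (limma adjusted p from 0.0178 to 0.0461). Col3a1 differed by -2.36 ± 0.98 and did not pass (limma adjusted p = 0.200). Enzymes that process collagen fell in 5 of 20 probes, among them the cross-linking enzyme Loxl1 (-6.00 ± 0.71, 63.9-fold, limma adjusted p = 0.000894), the procollagen C-proteinase enhancer Pcolce (-2.78 ± 0.38), the collagen chaperone Serpinh1 (-2.81) and the lysyl hydroxylase Plod2 (-2.70). Matrix partners fell in 7 of 44 probes, among them Thbs1 (thrombospondin, -5.38), fibulin Fbln2 (-4.13 ± 0.49), the laminin chain Lamb1 (-4.08 ± 0.60) and perlecan, Hspg2 (-3.08).

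Receptors fell in 5 of 20 probes, with Vcam1 (-3.63), Lrp1, an uptake receptor (-2.93), the fibronectin receptor chain Itga5 (-2.53 ± 0.44) and Erbb2 (-1.61) as the widest. Of the TGF-beta pathway 2 of 24 probes fell, the receptor Acvr1 (-1.80) and the activin chain Inhba (-1.68). Of proteases and inhibitors 4 of 23 fell, namely the inhibitors Timp1 (-3.91 ± 0.34, limma adjusted p = 0.000352) and Timp2 (-3.15) and the metalloproteinases Mmp14 (-1.91) and Mmp11 (-1.88). The calls of Loxl1, Pcolce, Fbln2, Lamb1, Itga5 and Timp1 held in all 15 other settings. Those of Hspg2, Plod2, Timp2 and Mmp14 ended in 11 each, that of Col5a2 in 10, and those of Col1a1 and Serpinh1 in 9 each. The 30 lower calls became 8 with quantile normalization and 13, 8, 18, 18 and 19 without the macrophage, T-cell lymphoma, fibroblast, myoblast or mammary tumor line. Lower calls over all probes fell as well, from 155 to 66 with quantile normalization. They were 102, 60 and 108 without the macrophage, T-cell lymphoma or fibroblast line. A higher call appeared without T-cell lymphoma (1 probe) and with centred arrays (1 probe, beside 34 lower). Quantile normalization also gave smaller differences, such as -4.39 for Col5a2 and -2.86 for Col1a1, and without T-cell lymphoma those of Timp2 and Plod2 were -2.21 and -2.10.

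**Figure D5:**
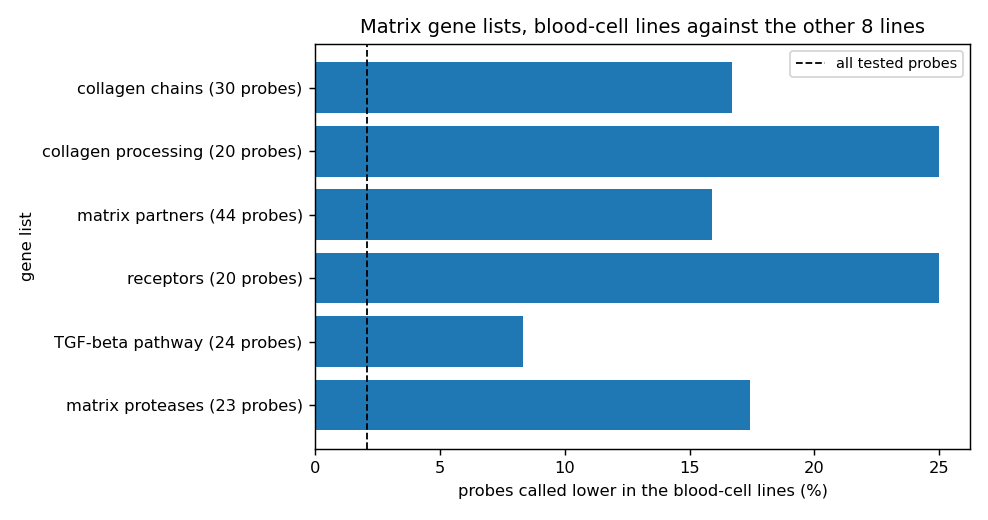
Percent of probes called lower in the blood-cell lines than in the other 8 lines (x axis) for 6 matrix gene lists (bars), with the share among all tested probes as the dashed line at 2.09%. The bars run from 8.33% for the TGF-beta pathway to 25% for collagen processing and receptors.

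In the fibroblast line, where Dcn was highest, 9 of the 175 probes were called higher (5.14%) and 4 lower (2.29%) than in the other 10 lines, against 0.835% and 0.391% of all probes. The higher ones included Thbs2 (5.78 ± 0.92, limma adjusted p = 0.0479) and Thbs1 (3.14), both thrombospondins, the matricellular Ccn3 (4.10 ± 0.33, limma adjusted p = 0.00785), Col6a1 (3.35), Col8a1 (2.93), Lrp1 (2.48), Fbln2 (2.12) and the protease Ctsl (3.41), beside Fstl1 above. The Thbs2 difference was 4.54 without fibroblast array 2 and 7.01 without fibroblast array 1, and its call ended in 6 of 12 other settings. Lower were Col12a1 (-2.51), the inhibitor Timp3 (-2.93) and the ligands Bmp4 (-1.96) and Tgfb2 (-1.58). Col1a1 (1.86 ± 0.47, limma adjusted p = 0.135) and Col3a1 (2.19 ± 0.87, limma adjusted p = 0.336) did not pass. With the replicate block Col1a1 passed (limma adjusted p = 0.0266) and Col3a1 did not (limma adjusted p = 0.110). The block called 22 of the 175 probes higher and 8 lower, against 2.61% and 1.78% of all probes. Leaving out single arrays lowered the calls over all probes as well as those of the lists. The 13 calls became 2 without fibroblast array 1, 0 without fibroblast array 2 and 4 without myeloma array 2.

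Between embryo fibroblast and fibroblast 2 of the 175 probes were called higher and 1 lower, against 0.175% and 0.593% of all probes. Tenascin C (Tnc), a binding partner of periostin, was higher in embryo fibroblast by 4.22 ± 0.53 (limma adjusted p = 0.0278), and the aggrecanase gene Adamts5 by 3.18 ± 0.40. Ccn3 was lower by 5.58 ± 0.52 (limma adjusted p = 0.0189). The block gave 7 higher and 11 lower, against 0.970% and 3.11% of all probes, and leaving out any array of a pair left 0 or 1 list call. Of all probes 13 were higher and 44 lower, a split that was 16 and 19 with quantile normalization and 19 and 30 with centred arrays. Between mesenchymal and organ lines limma called 0 of 7423 probes in either direction (0% and 0%), while 81 were higher and 384 lower at an unadjusted p under 0.05. Leaving out the myoblast line gave 1 call.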

How the data were processed

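The 2-colour arrays gave 14 columns of log2 ratios, 1 per array, as deposited by the authors. Cy5 held the line and Cy3 the pool, per the labels. For background correction, normalization and spot filtering the methods were not given in the sources used. The log base is also unstated, and base 2 was assumed. Of 107520 values 0.393% were empty. The 80 Gapdh spots were averaged, leaving 7601 features, of which 7423 had a value in all 11 lines and were tested. Probes were named through the platform annotation, with 6809 matched to current RefSeq symbols, 4 with several symbols and 841 not listed left unnamed.

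limma 3.58.1 in R 4.3.3 was run on all tested features (lmFit, eBayes, two-sided, Benjamini-Hochberg, adjusted p under 0.05). The fibroblast comparisons used all 14 arrays (3 residual degrees of freedom), with the spread of lone arrays taken from the pairs. Lineage comparisons used 11 line means (8 residual degrees of freedom). Array numbers of the paired lines went together: differences of array 2 from array 1 correlated at 0.539, 0.333 and 0.381 between these lines, so the replicate block is given where it changes a count. In that block arrays without a number were set midway. The number of arrays limits the precision. Image runs follow the image numbers in the labels.

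The genes and gene lists were chosen with earlier results of these data known. Named genes were all relatives of the 3 genes, the 6 most like and 3 most opposite genes, up to 4 called genes per list and direction, and Col1a1 and Col3a1. Alternatives were quantile normalization, median centring, complete features, robust eBayes, image run as a random block, the replicate block, and leaving out each array of a pair or each line.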

Additional observations from a re-analysis of the deposited data

Results flagged for a closer look

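Smoc1, a relative of Sparc, had a log2 ratio of -4.54 in the kidney line, far from those of the other 4 organ lines, of which the nearest was testis at -1.51. Its gap was 0.786 of the range of the 5 lines, above the 95% limit of 0.71 in Dixon's test, and it rests on 1 array. It was 1 of 14 groups tested, all of relatives of the 3 genes, and chance would pick out about 1 in 20.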

How the results depend on the processing

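Over the alternatives Dcn in fibroblast minus the other lines lay between 5.36 and 5.54, and Sparc in blood-cell minus the other lines between -4.51 and -3.66. The lineage differences of Postn, and that of Sparc between mesenchymal and organ lines, changed sign without single lines, as given above. Of 552 refits of the 40 named calls 174 were no longer called and 0 changed sign, and 6 calls held in every setting. The probes called in the fibroblast comparison numbered 91. They became 227 with the image run as a random block, 326 with the replicate block, and 0 to 62 without 1 array of a pair, while the calls in the gene lists, 13, became 30 with the replicate block and 0 to 9 without 1 array. In the comparison of embryo fibroblast with fibroblast 57 became 35 with quantile normalization, 145 with the run block, 303 with the replicate block and 6 to 9 without 1 array. The 3 list calls became 5, 18 and 0 to 1 with the run block, the replicate block and without 1 array. For the blood-cell lines 232 became 106 with quantile normalization and 109 to 212 without 1 line, and 30 list calls became 8, and 9 to 26. For mesenchymal against organ lines 0 became 0 to 1. The causes of these changes were not tested. Among the named genes the replicate block ended no call and added those of Bgn and Col1a1 in fibroblast and of Smoc1 and Tgfbi in embryo fibroblast. Choosing like genes by rank kept few of them, and signal over background is not analysed here.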
